A study of Mus musculus with 29 samples.

Results

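The genes described here are 50 that code for adhesion molecules of the synapse and for scaffold proteins under the postsynaptic membrane, chosen by name out of 15123 to 15455 genes listed per comparison. All 50 were found in each of the 4 gene tables. Values came from RNA-seq of polyadenylated RNA from the anterior cingulate cortex (ACC), a frontal area used in recall of older memories, and from CA1, the hippocampal field through which memory of places is read out. The animals were male C56BL/6 mice (spelled as in the labels) aged 3 months and housed singly, and the labels name no transgene. In ACC there were 5 libraries from mice killed 4 weeks after being placed in an unfamiliar chamber and given a footshock of 0.7 mA, 5 from mice killed 4 weeks after the chamber alone, and 5 from naive mice. In CA1 there were 4 libraries from mice killed 1 h after chamber and footshock, 5 from mice killed 1 h after the chamber alone, and 5 from naive mice. These trained groups are called shock and context below.

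Each of the authors' deposited tables sets a trained group against naive mice of the same region, and gives for a gene its base mean (a normalised read count averaged over the libraries), the log2 fold change, its p-value and that p adjusted over genes. Values per library are not analysed here, so depth is unknown, no SD over mice is given and no library could be left out. Positive fold changes are higher in trained mice. The error of a fold change was implied from its size and p, and 95% intervals follow from it. A gene was called at an adjusted p under 0.05 in the deposited table. Both trained groups of a region share their naive mice. The 4 weeks of waiting, and any age difference that came with it, cannot be told apart from training in ACC. The tissue was bulk, in which fewer cells of a type and less RNA per cell cannot be told apart. Markers of CA1 and of cortex had higher base means in their own region, by unlike amounts (shock and then context tables, normalised separately). Fibcd1, a CA1 marker, had base means of 140 and 128 in the ACC tables and of 4269 and 4061 in the CA1 tables. Lamp5, a cortical marker, had 4777 and 4422 in ACC and 914 and 921 in CA1. The gap was smaller for the CA1 marker Mpped1 (6899 and 6383 in ACC, 8031 and 7918 in CA1). It was also smaller for the cortical marker Rorb (680 and 697 in ACC, 491 and 478 in CA1).

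Synaptic adhesion molecules span the cleft between neurons and help to place and match the release site and the receptor patch. On the presynaptic side neurexins and the phosphatases Ptprd, Ptprs and Ptprf bind postsynaptic partners such as neuroligins, Lrrtm, Slitrk and Il1rapl1 proteins. Behind the postsynaptic membrane Dlg proteins (Dlg4 is PSD-95) bind receptor and adhesion tails, Dlgap proteins link Dlg to Shank, and Shank proteins connect to Homer and actin. CA1 and ACC pyramidal neurons carry many such excitatory synapses.

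Upstream sequence was matched by symbol for 38 of the 50 genes in RefSeq's table (build GRCm38.p6). The 250 bases before the annotated start are shown for 3 genes with 1 start in that table: Ncam2 had the lowest fold change of the 50 in ACC after shock, Cadm2 the smallest p there, and Flrt3 the smallest p in CA1 after shock. They read 5′ to 3′ on the gene's strand, and capitals mark a match on either strand to a CCAAT box (the letters of its name), to a GC box (GGGCGG), to an E-box (CACGTG), an AP-1 site (TGANTCA) or a cAMP response element (TGACGTCA, or its core TGACG, which lies within it). These letters are a description of the window.
Ncam2, chr16:81200447-81200696, plus strand: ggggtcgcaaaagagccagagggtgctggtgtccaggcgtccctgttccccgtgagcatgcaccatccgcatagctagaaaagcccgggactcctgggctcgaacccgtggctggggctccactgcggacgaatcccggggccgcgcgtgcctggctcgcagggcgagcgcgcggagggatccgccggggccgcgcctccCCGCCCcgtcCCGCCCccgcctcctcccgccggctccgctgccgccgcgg
Cadm2, chr16:67620909-67621158, minus strand: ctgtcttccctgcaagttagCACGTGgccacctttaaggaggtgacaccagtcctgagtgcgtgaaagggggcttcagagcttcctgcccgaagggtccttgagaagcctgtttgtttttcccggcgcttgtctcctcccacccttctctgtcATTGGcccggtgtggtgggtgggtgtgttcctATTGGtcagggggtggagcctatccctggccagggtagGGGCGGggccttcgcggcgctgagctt
Flrt3, chr2:140671477-140671726, minus strand: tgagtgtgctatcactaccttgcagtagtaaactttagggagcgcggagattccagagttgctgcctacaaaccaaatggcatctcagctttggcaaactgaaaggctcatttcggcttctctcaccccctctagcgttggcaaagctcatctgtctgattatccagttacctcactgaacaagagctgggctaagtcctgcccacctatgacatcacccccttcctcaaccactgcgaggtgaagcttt
The Ncam2 window was 75.2% G or C and held a pair of GC boxes, the Cadm2 window (60.8%) held a GC box, CCAAT boxes and an E-box, and the Flrt3 window (50%) held none of the searched letters. A GC box was found for 17 of the 38 genes (44.7%), against 35.4% of 27025 genes in the table. The core TGACG was found for 6 genes (15.8%, against 19.8% of all), the full cAMP response element for 1 (2.63%, against 1.77%), the AP-1 site for 3 (7.89%, against 7.82%), the CCAAT box for 13 (34.2%, against 37.5%) and the E-box for 5 (13.2%, against 6.86%).

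The genes differed widely in level and size. Per kilobase of their longest transcript, base means in the ACC shock table ran from 54.2 for Il1rapl1, an interleukin receptor relative that binds Ptprd across the cleft, to 8075 for Clstn1, a calsyntenin carried along axons. Dlg4, the most abundant postsynaptic scaffold of the group, stood at 2768 per kilobase there and Cadm4, an adhesion molecule of neurons and glia, at 2899. The smallest base mean of the 50 in that table was 229, and the median was 2883, against 444 over all genes listed. In the genome they spanned 4.25 kb (Slitrk1) to 2271 kb (Ptprd), with a median of 109 kb against 22.8 kb over all genes. Levels set across regions rest on tables normalised apart. On that footing Ntng1, a GPI-anchored ligand of Lrrc4c, had base means of 343 and 326 in the ACC tables and 1001 and 968 in the CA1 tables, and Lrrtm1 1098 and 950 in ACC and 1920 and 1930 in CA1. Flrt2 had 2277 and 2260 in ACC and 1215 and 1193 in CA1, and Il1rapl1 495 and 493 in ACC and 272 and 257 in CA1. So Ntng1 and Lrrtm1 were listed with more reads in CA1, and Flrt2 and Il1rapl1 with more in ACC.

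**Figure D1:**
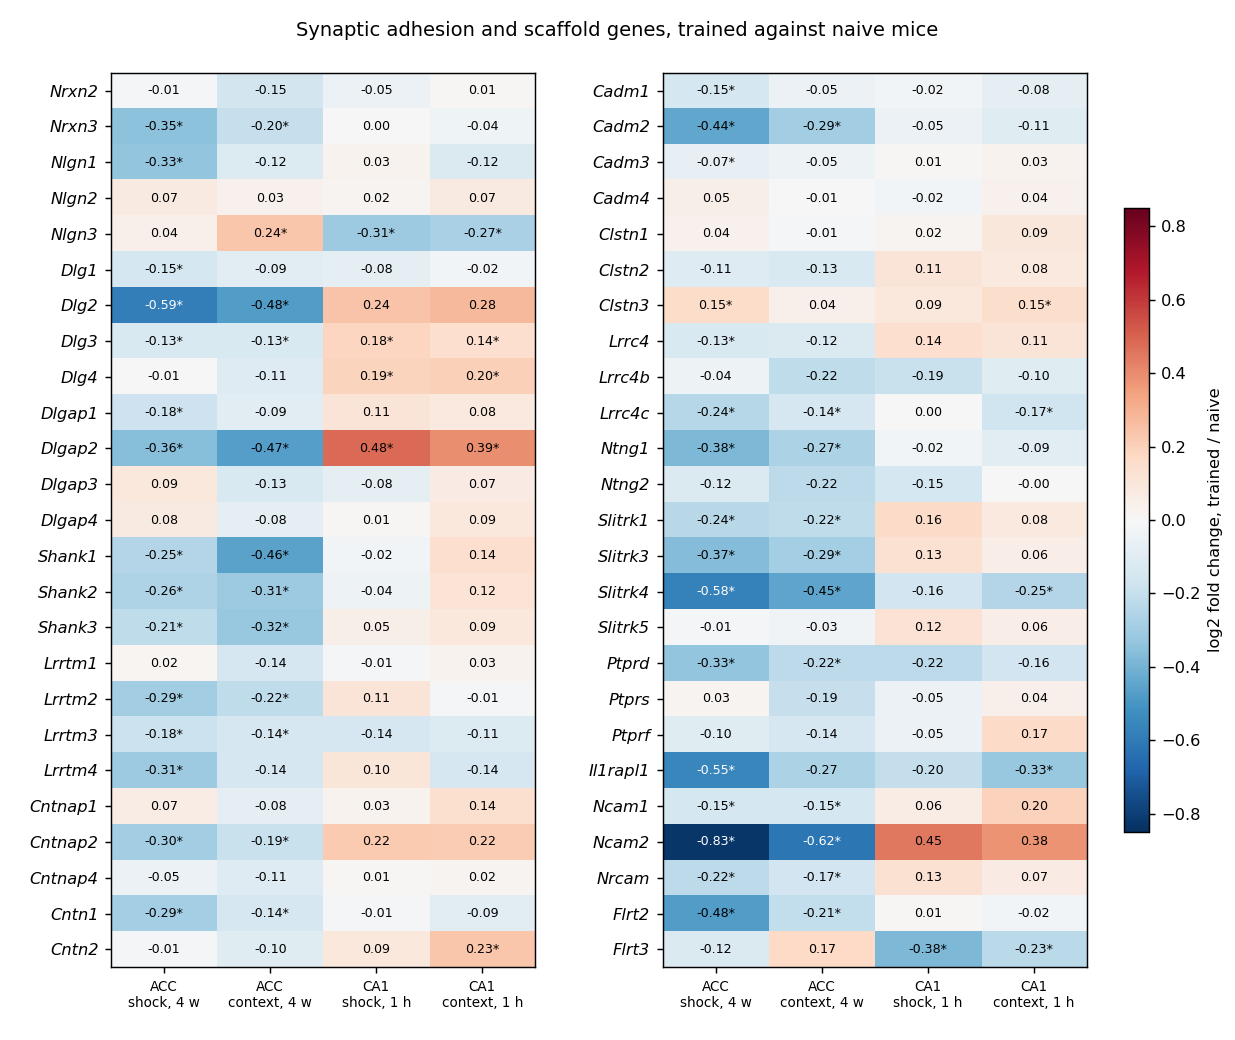
Log2 fold change of trained over naive mice for the 50 genes (rows, in order of family) in the 4 comparisons (columns), with an asterisk where the deposited adjusted p was under 0.05. Blue (lower in trained mice) fills most of the ACC columns, from -0.83 for Ncam2, while the CA1 columns are mixed, from -0.38 for Flrt3 to 0.48 for Dlgap2.

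In ACC 4 weeks after shock these genes were mostly lower than in naive mice. Of the 50, 30 were called lower, 1 higher and 19 neither, beside 41.6% of all 15455 genes called, 21.8% lower and 19.8% higher. The median log2 fold change was -0.15, against 0.01 over all genes listed. After context alone, also at 4 weeks, 22 were called lower, 1 higher and 27 neither, beside 19.6% of all 15270 genes called, 10.2% lower and 9.37% higher. The median was then -0.14, against 0.00361 over all genes. Fold changes in both ACC tables also moved with transcript length and GC content. With a smooth trend on these removed from all genes, 18 of the 50 were lower and 2 higher after shock (10.9% and 13.5% of all genes), and 4 lower and 2 higher after context (4.11% and 6.08%). Of 8 neuronal markers (Snap25, Syt1 and others) 1 was called higher and 3 lower after shock (median -0.06), and 0 higher and 1 lower after context (median -0.00270). Endothelial markers had 1 of 8 higher and 5 lower after shock (median -0.37) and 1 higher and 0 lower after context (median 0.06), microglial markers 4 and 5 of 8 higher, and astrocyte markers 1 higher and 4 lower after shock and 2 higher and 1 lower after context. Of 4 markers of cortical layers 2 were called lower after shock (median -0.23) and 1 after context. The part of these cells in the result was not tested.

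On the presynaptic side, Nrxn3 (chromosome 12, 88722876 to 90334935), a neurexin with a very large gene, was 1.27-fold lower in ACC after shock (log2 -0.35, interval -0.41 to -0.28, adjusted p = 4.67e-24 in the authors' deposited table), or -0.14 with a smooth trend on transcript length and GC content removed (adjusted p = 0.000181). After context it was 1.15-fold lower (interval of the log2 -0.33 to -0.06, adjusted p = 0.0236 in the authors' deposited table), and once the trend on length and GC was removed it had -0.0187 (adjusted p = 0.919). Nrxn2 was not called, at -0.01 and -0.15 after shock and context in the authors' deposited tables. Ptprd, a receptor phosphatase that binds Slitrk and Il1rapl1 proteins, had -0.33 after shock (adjusted p = 1.83e-21) and -0.22 after context (adjusted p = 0.0465) in the authors' deposited tables. Ptprd without that trend stood at -0.03 and 0.02, neither past the threshold. Its relatives Ptprs (0.03 and -0.19) and Ptprf (-0.10 and -0.14) were not called in the authors' deposited tables. Thus 1 of the 2 neurexins and 1 of the 3 phosphatases were called lower in both ACC tables.

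Among postsynaptic partners the neuroligins moved apart. Nlgn1, which is found at excitatory synapses, had -0.33 after shock (adjusted p = 8.35e-17) and -0.12 after context (adjusted p = 0.301) in the authors' deposited tables. Its value after shock turned to 0.06 with the trend removed, and was not past the threshold. Nlgn2, the neuroligin of inhibitory synapses, was not called (0.07 and 0.03). Nlgn3 (chromosome X, 101299168 to 101325963) was the only one of the 50 called higher after context, with 0.24 (interval 0.08 to 0.39, adjusted p = 0.0195), and had 0.04 after shock, not called, in the authors' deposited tables. With the trend removed Nlgn3 was past the threshold in both, at 0.23 after shock and 0.42 after context. In GENCODE M21 41.2% of the exonic bases of Nlgn3 are shared with Gm21986, a transcript on the same strand, so reads there may have been counted differently. Lrrtm genes, whose products bind neurexins, were lower in 3 of 4 cases after shock and 2 of 4 after context. In the authors' deposited tables Lrrtm4 had -0.31 after shock, and an antisense gene covers 25.1% of its exonic bases. Lrrtm2 had -0.29 and -0.22, Lrrtm3 -0.18 and -0.14, and Lrrtm1 (0.02 and -0.14) was not called. None of the Lrrtm genes was past the threshold with the trend removed.

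Slitrk genes, partners of Ptpr phosphatases, were lower in 3 of 4 cases in both ACC tables. Slitrk4 (chromosome X, 64264885 to 64276996) was 1.49-fold lower after shock (log2 -0.58, interval -0.67 to -0.48, adjusted p = 1.92e-29 in the authors' deposited table) and 1.36-fold lower after context (interval of the log2 -0.60 to -0.29, adjusted p = 1.47e-06 in the authors' deposited table). With the trend removed it had -0.20 after shock (adjusted p = 0.000335) and -0.17 after context (adjusted p = 0.184). Slitrk3, which acts at inhibitory synapses with Ptprd, had -0.37 and -0.29, Slitrk1 -0.24 and -0.22, and Slitrk5 -0.01 and -0.03, the last not called, in the authors' deposited tables. Slitrk3 stayed past the threshold with the trend removed, at -0.28 after shock and -0.23 after context, while Slitrk1 did so after shock alone (-0.11 and -0.13). Flrt2, a partner of latrophilins and of the netrin receptor Unc5, was 1.39-fold lower after shock (log2 -0.48, interval -0.56 to -0.39, adjusted p = 2.40e-27 in the authors' deposited table), and had -0.21 after context (adjusted p = 0.0286 in the authors' deposited table). Removing the trend left -0.21 after shock, past the threshold, and -0.04 after context, not past it. Flrt3, at -0.12 after shock and 0.17 after context in the authors' deposited tables, was not called. Il1rapl1 had -0.55 after shock (interval -0.70 to -0.41, adjusted p = 1.02e-12) and -0.27 after context (adjusted p = 0.0646) in the authors' deposited tables. With the trend removed it had -0.18 and -0.00109, neither past the threshold.

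The scaffolds were lower at each layer, but not in each gene. Dlg2 (PSD-93; chromosome 7, 91090706 to 92447003) was 1.51-fold lower after shock (log2 -0.59, interval -0.69 to -0.49, adjusted p = 1.14e-30 in the authors' deposited table) and 1.39-fold lower after context (log2 -0.48, interval -0.64 to -0.31, adjusted p = 7.15e-07 in the authors' deposited table). Both stayed past the threshold with the trend removed (-0.34 and -0.29). Dlg4, its better known relative, had -0.01 and -0.11 in the authors' deposited tables and was not called, and stood 0.16 above zero after shock with the trend removed (adjusted p = 0.000404). Dlg3 had -0.13 in both of the authors' deposited ACC tables (adjusted p = 0.000212 after shock and 0.00613 after context), and Dlg1 -0.15 and -0.09, called after shock alone. Removing the trend ended the calls of Dlg3, and Dlg1 after shock turned to 0.06, no longer past the threshold. Dlgap2 (chromosome 8, 14095865 to 14847680) had -0.36 after shock (adjusted p = 7.02e-18) and -0.47 after context (interval -0.58 to -0.35, adjusted p = 1.24e-13) in the authors' deposited tables. It was little moved by the trend, at -0.41 and -0.43. Dlgap1 had -0.18 and -0.09 in the authors' deposited tables, and Dlgap3 (0.09 and -0.13) and Dlgap4 (0.08 and -0.08) were not called. All 3 Shank genes, whose products form the deep layer of the postsynaptic density, were called lower in both ACC tables. After shock Shank1 had -0.25, Shank2 -0.26 and Shank3 -0.21, and after context Shank1 -0.46, Shank2 -0.31 and Shank3 -0.32 in the authors' deposited tables. Without the trend the 3 were past the threshold after shock (-0.19, -0.16 and -0.20) and not after context (-0.20, -0.12 and -0.12).

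Adhesion molecules of axons and of no fixed side also fell in part. Ncam2, a neural cell adhesion molecule, was 1.77-fold lower after shock (log2 -0.83, interval -0.98 to -0.68, adjusted p = 1.73e-24 in the authors' deposited table) and 1.53-fold lower after context (log2 -0.62, interval -0.82 to -0.42, adjusted p = 1.01e-07 in the authors' deposited table). It remained past the threshold with the trend removed, at -0.55 and -0.46. Ncam1, its closest relative, had -0.15 in both of the authors' deposited ACC tables, and Nrcam -0.22 and -0.17; all were called, and none was with the trend removed. Cadm2 (chromosome 16, 66655421 to 67620908), an adhesion molecule of axons, was 1.36-fold lower after shock (log2 -0.44, interval -0.50 to -0.38, adjusted p = 3.20e-40 in the authors' deposited table) and had -0.29 after context (adjusted p = 0.00523 in the authors' deposited table). Its values with the trend removed were -0.06 and -0.02, not past the threshold. Among its relatives Cadm1 had -0.15 and -0.05, Cadm3 -0.07 and -0.05, and Cadm4 0.05 and -0.01 in the authors' deposited tables, called for Cadm1 and Cadm3 after shock. Cadm4 after shock turned to -0.15 with the trend removed, past the threshold (adjusted p = 0.00244).

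Cntnap2, which clusters potassium channels beside the node of Ranvier, had -0.30 and -0.19, and the contactin gene Cntn1 -0.29 and -0.14 in the authors' deposited ACC tables, each called. Cntnap2 lost both calls without the trend (-0.01 and 0.05), and Cntn1 kept that after shock (-0.10). Cntnap1 (0.07 and -0.08), Cntnap4 (-0.05 and -0.11) and Cntn2 (-0.01 and -0.10) were not called. Genes of the Ntng and Lrrc4 families were lower in 3 of 5 cases after shock and 2 of 5 after context. In the authors' deposited tables Ntng1 had -0.38 and -0.27, Lrrc4c, its receptor, -0.24 and -0.14, and Lrrc4 -0.13 and -0.12, the last called after shock alone. Without the trend Ntng1 (-0.24 and -0.17) and Lrrc4c (-0.12 and -0.11) were past the threshold after shock and not after context. Lrrc4b (-0.04 and -0.22) and Ntng2 (-0.12 and -0.22) were not called, and 14.0% of the exonic bases of Ntng2 are shared with another gene in GENCODE M21. Clstn3, a calsyntenin and postsynaptic ligand of neurexins, was the only one of the 50 called higher after shock. It had 0.15 (interval 0.08 to 0.23, adjusted p = 0.000288 in the authors' deposited table), and 0.06 with the trend removed (adjusted p = 0.261). Clstn1 (0.04 and -0.01) and Clstn2 (-0.11 and -0.13) were not called.

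The fall in ACC was set beside the size of the genes. After shock, 15 of the 17 genes spanning at least 300 kb were called lower, with a median log2 fold change of -0.33, beside 57.9% called lower of all 501 genes of that span (median -0.20). Of the 10 spanning under 25 kb, 4 were called lower (median -0.07), beside 9.98% of 8165 genes (median 0.09). Those 4 were Slitrk1, Slitrk3, Slitrk4 and Lrrtm2. After context 10 of the 17 largest were called lower (median -0.20; 36.2% of 500 genes, median -0.14) and 4 of the 10 smallest (median -0.11; 3.82% of 8007 genes, median 0.06). Across the 50 genes the fold change after shock had a Spearman rho of -0.51 with span, -0.44 with transcript length and 0.71 with GC content, and across all genes -0.38, -0.45 and 0.49. After context the values were -0.32, -0.34 and 0.21 across the 50 and -0.32, -0.49 and 0.17 across all. Genes share libraries and are not independent replicates, so these are descriptions. From 25 to 100 kb the medians after shock were -0.04 for 15 of the genes and -0.05 for all 5075 genes, and after context -0.13 and -0.03. From 100 to 300 kb they were -0.15 for 8 of the genes and -0.13 for all 1714 genes after shock, and -0.14 and -0.09 after context. The 50 genes had lower medians than all genes in each class except 25 to 100 kb after shock. They also had a higher median base mean, and its part in the calls was not tested.

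**Figure D2:**
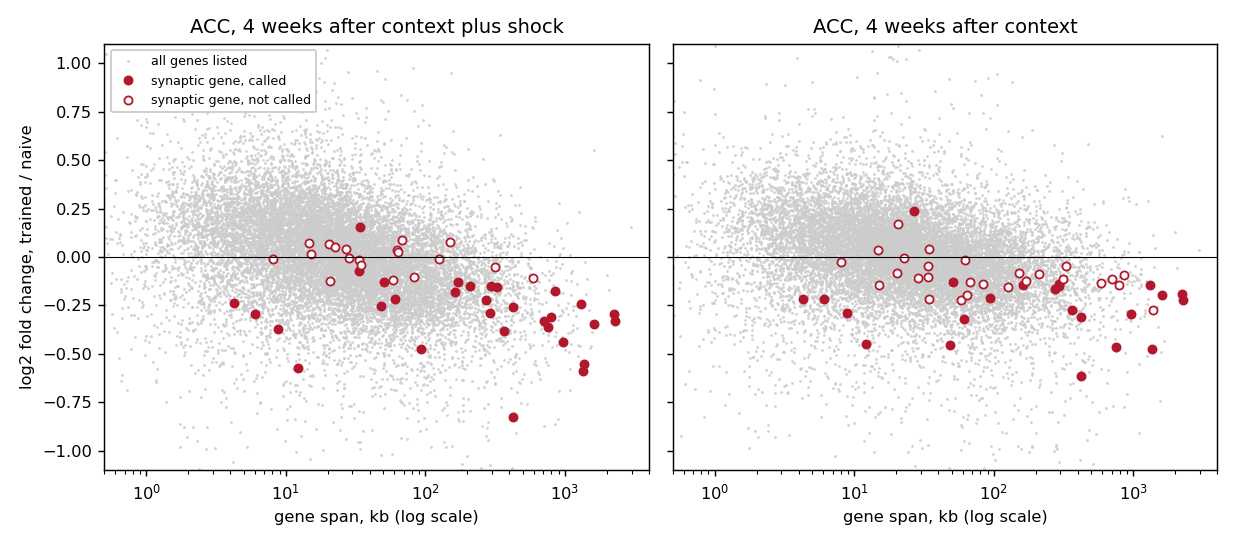
Log2 fold change of trained over naive ACC (vertical) against the span of the gene in kb (horizontal, log scale), after shock (left) and context (right). Grey points are all genes listed, filled red points are synaptic genes called and open ones not called; after shock 15 of the 17 synaptic genes of at least 300 kb are called, all below zero. A few points lie outside the vertical range shown.

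Exonic bins gave a further readout of the same libraries. Only bins whose adjusted p was under 0.1 are listed in the bin tables, and a bin's fold change is relative to its gene: for 2036 bins listed in both ACC tables the log2 ratio of bin means between tables had a slope of 0.54 on the difference in bin fold change and of 0.47 on that in gene fold change. After shock 43 bins of 26 of the 50 genes were listed (52% of the 50, against 10.2% of all genes in the gene table), 26 higher and 17 lower. After context 73 bins of 31 genes were listed (62%, against 16.5%), 38 higher and 35 lower, and 2 more belonged to units that merge Nlgn3 or Ntng2 with neighbours. Over all genes, listed bins outside merged units were 1614 higher and 884 lower after shock, and 2606 higher and 1747 lower after context. The 50 genes also had a higher median base mean than all genes. The part of this in the listing of their bins was not tested.

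By bin number, the listed bin nearest the 3′ end of a gene was mostly higher and its other listed bins mostly lower. More than 1 bin was listed for 11 genes after shock and 15 after context. For the rest the only listed bin was counted as the nearest, wherever it lay. If bins are numbered along the chromosome, which the headers do not state, the listed bin nearest the 3′ end of each gene was higher in 25 of 26 genes after shock and 28 of 31 after context. The other listed bins were higher in 1 of 17 and 10 of 42 cases. All 8 bins numbered 1 or 2 in genes on the minus strand were higher after shock, as were all 11 after context. The share of higher bins at these positions over all genes is not given here, so these counts have no background. In Clstn1, on the plus strand, bins 4, 7, 8 and 15 had log2 values of -0.12, -0.14, -0.15 and -0.11 after shock and bin 25 had 0.08, while after context bins 4 to 15 listed 8 lower bins (-0.27 to -0.06) and bin 25 had 0.11 in the authors' deposited tables. The gene itself was not called in either table. Flrt2 had bin 4 higher (0.07 and 0.10) and bin 3 lower (-0.14 and -0.30) after shock and context in the authors' deposited tables.

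Shank3 bin 32 had 0.12 after shock (adjusted p = 6.33e-09) and 0.16 after context (adjusted p = 5.16e-16) in the authors' deposited tables, the smallest bin p of the 50 genes after shock. After context the smallest was that of Flrt2 bin 4 (adjusted p = 1.02e-20 in the authors' deposited table). Nlgn2 bin 1 had 0.05 and 0.06, and Ptprd bin 2 0.16 and 0.19, with bin 3 at 0.59 in both of the authors' deposited tables and bin 40 at -0.27 and -0.31. Cntn1 bin 28 had 0.12 and 0.16, Cntn2 bin 5 0.10 and 0.16, and Nrxn2 bin 51 0.15 and 0.18 in the authors' deposited tables. Dlg1 bin 58 had 0.20 in both of the authors' deposited tables, and Shank1 bin 37 had 0.24 and 0.29. Nrxn3 after context had bins 7, 23, 24 and 29 lower (-0.68 to -0.32) and bins 46 to 50 higher (0.13 to 0.61) in the authors' deposited table. After shock it had bins 29 and 41 lower (-0.29 and -0.25) and bin 50 higher (0.13) in the authors' deposited table. Bins of both signs were listed for 11 of the 26 genes after shock and 13 of the 31 after context.

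**Figure D3:**
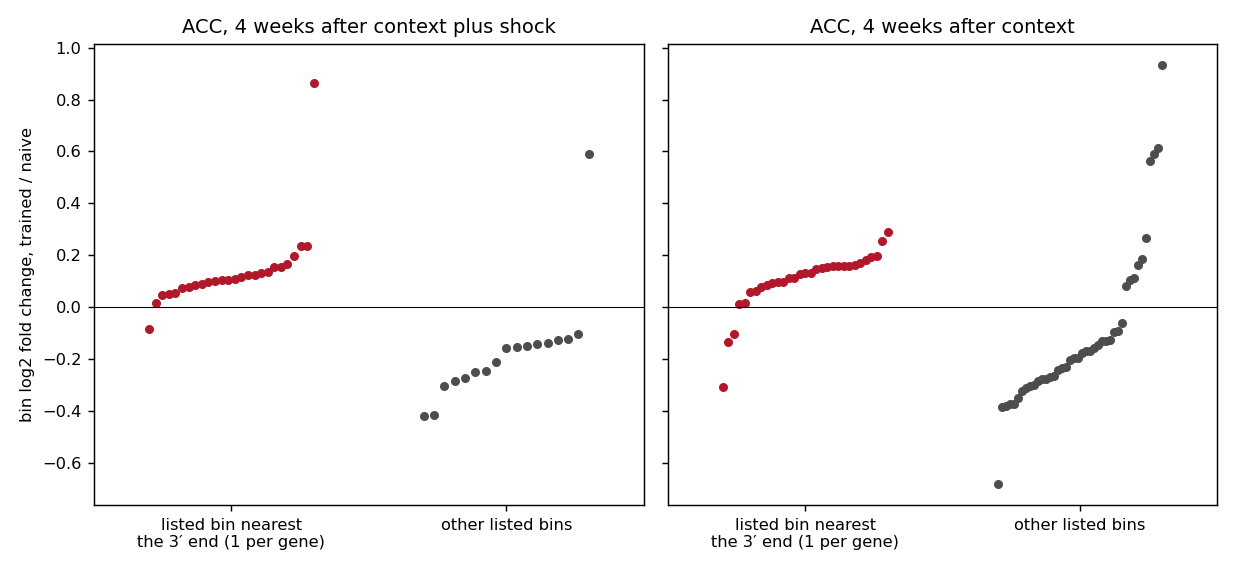
Log2 fold change, relative to the gene, of each listed exonic bin of the synaptic genes in ACC, trained over naive mice, after shock (left) and context (right). Points are bins, sorted within a column. A bin above zero can belong to a gene that was lower in trained mice. The listed bin nearest the 3′ end by bin number (red, 1 per gene) is above zero in 25 of 26 genes after shock and 28 of 31 after context. The other listed bins (grey) are mostly below. The share over all genes at these positions is not given.

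Dlgap1 bin 44 was the only bin of these genes listed in all 4 tables, of 24 bins in all that were. Its log2 fold change was 0.87 in ACC after shock (adjusted p = 0.0147) and 0.93 after context (adjusted p = 0.00360) in the authors' deposited tables. In CA1 it was 0.72 after shock (adjusted p = 2.60e-05) and 0.58 after context (adjusted p = 0.00662) in the authors' deposited tables. The bin is small, with mean counts of 42.1 and 43.6 in ACC and 38.2 and 34.2 in CA1. Dlgap1 as a gene had -0.18 and -0.09 in ACC and 0.11 and 0.08 in CA1, called in ACC after shock alone. In CA1 after context Dlgap1 bin 23 (0.13) and Cadm2 bin 1 (-0.08) were listed too in the authors' deposited table, and after shock no other bin of the 50 genes was.

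In CA1 1 h after training fewer of these genes were called than in ACC, and calls went in both directions. After shock 3 were called higher, 2 lower and 45 neither (10% called), beside 6.05% of all 15115 genes called (3.21% higher, 2.84% lower). After context 5 were called higher, 5 lower and 40 neither (20% called), beside 8.03% of all 15123 genes called (4.62% higher, 3.41% lower). The medians were 0.01 and 0.05, against -0.01 and -0.00357 over all genes. With the trend on length and GC removed, 1 was higher and 3 lower after shock (2.74% and 2.96% of all genes), and 0 higher and 1 lower after context (2.47% and 1.65% of all genes). Dentate gyrus markers, of tissue that adjoins CA1, had medians of 0.38 and 0.45 with 0 of 4 called, and endothelial markers had 5 of 8 higher in each table, with 0 lower after shock and 1 lower after context. Of the 4 cortical markers 2 were lower after shock (Cux2 -0.63 and Rorb -0.24) and 1 after context (Rorb -0.27) in the authors' deposited tables. Their part in the result was not tested.

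Scaffold genes made up most of the higher calls. Dlgap2 had 0.48 after shock (interval 0.20 to 0.76, adjusted p = 0.0201) and 0.39 after context (interval 0.13 to 0.65, adjusted p = 0.0433) in the authors' deposited tables, or 1.39-fold and 1.31-fold. Dlg4 had 0.19 and 0.20 (adjusted p = 0.0473 and 0.0207) and Dlg3 0.18 and 0.14 (adjusted p = 0.0213 and 0.0479) in the authors' deposited tables, all called. Dlg2 (0.24 and 0.28) and Ncam2 (0.45 and 0.38) had fold changes above those of Dlg3 and Dlg4 but were not called, with implied errors of 0.188 and 0.135 for Dlg2 and 0.268 and 0.236 for Ncam2. Clstn3 had 0.09 and 0.15, and Cntn2, a contactin of axons, 0.09 and 0.23 in the authors' deposited tables, both called after context alone. With the trend removed Dlgap2 after shock was the only one of the higher calls past the threshold (0.46, adjusted p = 0.0299).

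The lower calls were adhesion genes. Flrt3 (chromosome 2, 140650914 to 140671469), whose upstream sequence is given above, had -0.38 after shock (interval -0.52 to -0.24, adjusted p = 1.99e-05) and -0.23 after context (interval -0.38 to -0.09, adjusted p = 0.0311) in the authors' deposited tables. Nlgn3 had -0.31 after shock (interval -0.47 to -0.15, adjusted p = 0.00703) and -0.27 after context (interval -0.42 to -0.13, adjusted p = 0.00752) in the authors' deposited tables, and it alone stayed past the threshold in both with the trend removed (-0.38 and -0.37). Called after context alone were Slitrk4 (-0.16 after shock and -0.25 after context), Il1rapl1 (-0.20 and -0.33) and Lrrc4c (0 and -0.17) in the authors' deposited tables. Ptprd at -0.22 and Lrrc4 at 0.14 after shock had adjusted p = 0.0531 and 0.0565 in the authors' deposited table. The intervals of shock and context overlapped for each of the 10 genes.

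**Figure D4:**
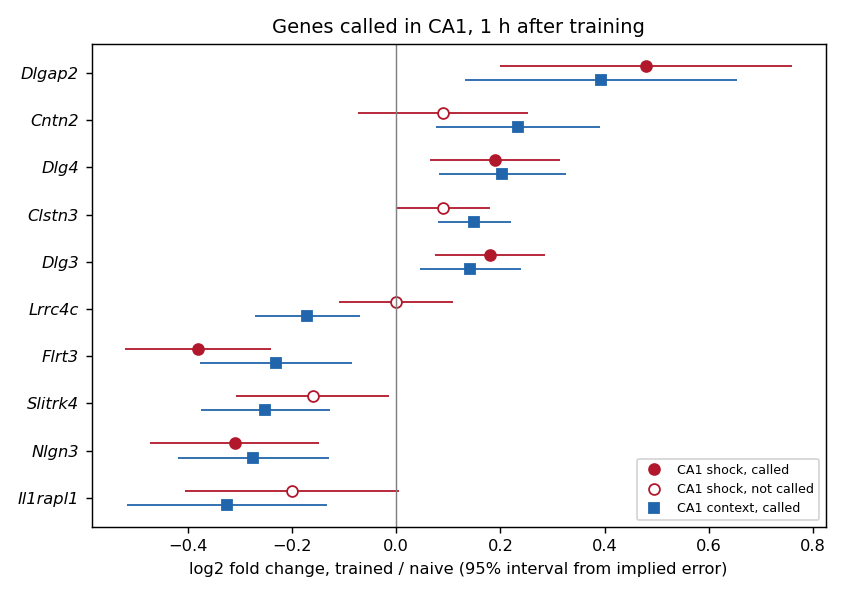
Log2 fold change over naive CA1 with 95% intervals from the implied error, for the 10 genes called in either table, 1 h after shock (red circles) or context (blue squares); filled symbols were called. Dlgap2 is the highest (0.48 and 0.39), and Flrt3 (-0.38) and Il1rapl1 (-0.33) are the lowest after shock and context.

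Shock was next set against context in the same region, by subtracting one fold change from the other and dividing by the root of the summed squares of both errors (a normal test, adjusted over all genes in both tables). In ACC 0 of the 50 genes were past the threshold, beside 1.59% of 15243 genes, and 8 had an unadjusted p under 0.05, as did 11.97% of all genes. The smallest p belonged to Flrt2, lower after shock than after context by a log2 of -0.26 (SE 0.0856, adjusted p = 0.0942), then Flrt3 (-0.29, adjusted p = 0.103) and Ptprs (0.22, adjusted p = 0.210). The shared naive mice make this error too large. With a correlation of 0.5 between the comparisons, as for groups of equal spread, 6 genes were past the threshold, beside 10.5% of all genes: Flrt3, Flrt2, Nlgn1, Cntn1 and Il1rapl1 lower after shock and Ptprs higher. In CA1 0 of the 50 were past the threshold, beside 0.00665% of 15034 genes (1 gene), and 1 (Lrrc4c, 0.17) had an unadjusted p under 0.05, as had 1.004% of all genes. With the correlation of 0.5 there were again 0 in CA1, 7 with an unadjusted p under 0.05, as had 5.48% of all genes.

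Late changes in ACC were then set against early changes in CA1, a comparison added after the values had been seen and one in which region and time differ together. The fold changes differed past the threshold for 26 genes after shock, 24 lower in ACC and 2 higher, beside 25% of 14942 genes. After context they differed for 16 genes, 14 lower in ACC and 2 higher, beside 14.4% of 14859 genes. With the trend on length and GC removed from the difference the numbers were 10 and 7. The share of all genes at that setting is not given here, so these 2 numbers have no background. Whether ACC and CA1 libraries came from the same mice is not given in the sources used here. The largest difference was in Ncam2, with -0.83 in ACC and 0.45 in CA1 after shock (difference -1.28, SE 0.279, adjusted p = 9.21e-05) and -0.62 and 0.38 after context (difference -1.0005, SE 0.257, adjusted p = 0.00227). Dlgap2 differed by -0.84 after shock (adjusted p = 8.22e-07) and -0.86 after context (adjusted p = 6.13e-07), and Dlg2 by -0.83 and -0.76. Nlgn3 went the other way, with 0.04 in ACC and -0.31 in CA1 after shock (difference 0.35, adjusted p = 0.00391) and 0.24 and -0.27 after context (difference 0.51, adjusted p = 0.000126), as did Flrt3 (differences 0.26 and 0.40).

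Calls after either training, pooled within a region, crossed for few genes. Dlg3 and Dlgap2 were called higher in CA1 and lower in ACC, Nlgn3 lower in CA1 and higher in ACC, and Il1rapl1, Lrrc4c and Slitrk4 lower in both. Clstn3 was called higher in both, in ACC after shock alone and in CA1 after context alone. The calls of Il1rapl1 were in ACC after shock and in CA1 after context. Another 25 genes were called lower in ACC and not in CA1, and 15 in no table, among them Nlgn2, Nrxn2, Clstn1, Lrrtm1 and Ptprs. Over all genes, calls were also more common in ACC (41.6% after shock, 19.6% after context) than in CA1 (6.05% and 8.03%). The share of all genes in each crossed class is not given here, so the counts describe these genes only.

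**Figure D5:**
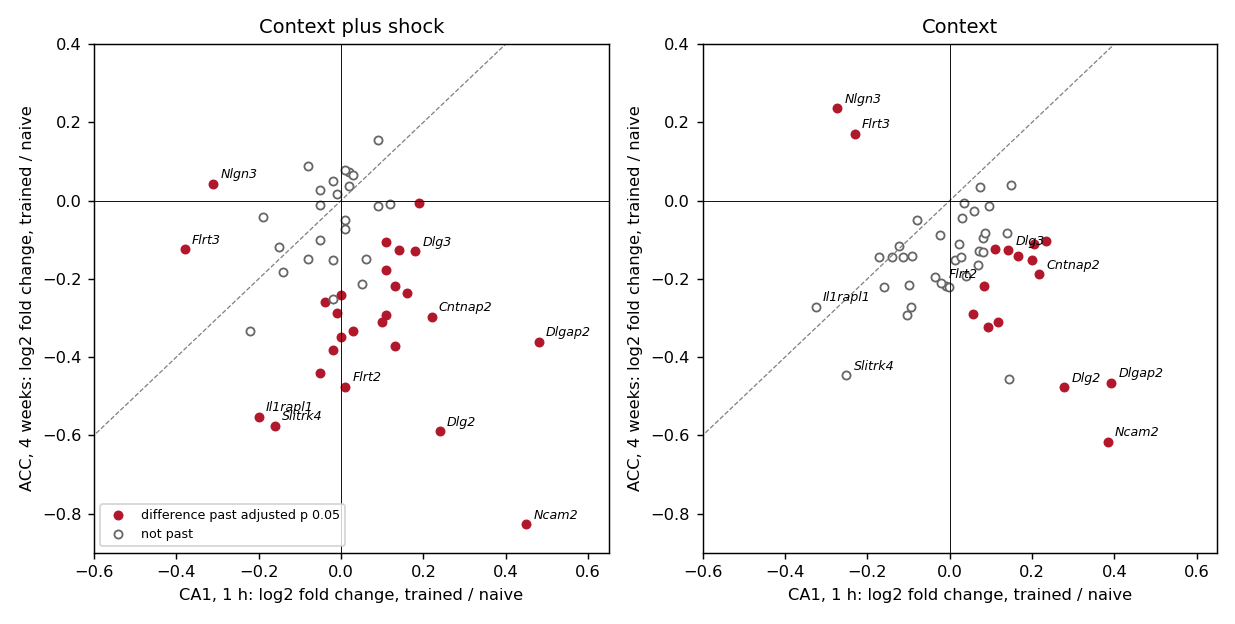
Log2 fold change in ACC 4 weeks after training (vertical) against that in CA1 1 h after training (horizontal), for shock (left) and context (right); each point is a synaptic gene, the dashed line marks equal values, and red points differ past an adjusted p of 0.05. Ncam2, Dlg2 and Dlgap2 lie lowest on the right, Nlgn3 and Flrt3 upper left.

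A wider list of 81 other synaptic adhesion and scaffold genes gave the setting. In ACC 9 were called higher and 39 lower of 81 listed after shock (median -0.11), beside 19.8% and 21.8% of all genes. After context 4 were higher and 30 lower of 80 (median -0.11), beside 9.37% and 10.2%. Removing the trend on length and GC took the medians to -0.025 after shock and 0.00544 after context. Among those with the smallest p after shock were the secreted synaptic protein Lgi2 (-0.77), the teneurin Tenm1 (-0.69) and the Lgi receptor Adam23 (-0.35), and on the higher side Igsf21 (0.41), Baiap2 (0.28), Efnb3 (0.26) and L1cam (0.18) in the authors' deposited table. After context they included Tenm3 (-0.54), Lgi2 (-0.67) and Sipa1l2 (-0.38) on the lower side, and Efnb3 (0.25), Cbln2 (0.25), Nptxr (0.12) and Nptx2 (0.54) in the authors' deposited table. In CA1 8 were called higher and 4 lower after shock (median 0.07, or 0.027 with the trend removed), beside 3.21% and 2.84% of all genes. After context 12 were higher and 2 lower (median 0.05, or 0.01 with the trend removed), beside 4.62% and 3.41%. Homer1, the partner of Shank with an activity-induced short form, had 1.06 and 0.91, and the neuronal pentraxin Nptx1 0.32 and 0.36 in the authors' deposited tables. After shock Nptx2 (0.62) and Cntnap5c (0.61) were also higher, and Slitrk6 (-0.91), Cbln1 (-0.63), Igsf21 (-0.40) and Cbln4 (-0.86) lower, in the authors' deposited table. After context Sipa1l2 and Mdga1 (0.36 each) were higher and Slitrk6 (-0.99) and Cntn3 (-0.28) lower in the authors' deposited table.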

How the data were processed

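There were 29 RNA-seq libraries in 6 groups, prepared by a TruSeq kit for messenger RNA per the labels' protocols. CASAVA 1.8.2, STAR 2.3.0e, SAMtools, DESeq2 and mm10 are named, per the submitters' processing notes; the sources used here give no roles, annotation or strand setting. The authors deposited, per the file headers, a base mean (a normalised count signal), log2 fold change, p-value and adjusted p for each gene and for each listed exonic bin. The deposited log2 values of CA1 after shock are rounded to 2 decimals, and 402 of them are exactly 0.

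The direction of fold changes was read off the base means, whose log2 ratio between the shock and context tables rose with the difference in fold change (slopes 0.51 in ACC and 0.46 in CA1). With no values per library, the planned count models could not be run and calls rest on the deposited adjusted p under 0.05. The error was the log2 fold change over the normal score of its p; in CA1 after shock, genes under 0.05 in size took the error of CA1 after context times 1.08. The trend was a spline fit (5 knots) on length and GC of the longest GENCODE M21 transcript, matched for 99.1% of genes, and p-values were recomputed. Exonic overlaps came from the same annotation. Python 3.11.15, pandas 2.3.3, scipy 1.17.1, sklearn 1.9.0 and matplotlib 3.10.9 were used. Calls, implied errors, the trend fit and the difference of shock and context were checked on simulated data. The simulated difference had independent errors, unlike the real comparisons, which share naive mice. Bins, overlaps and sequence matches were not simulated. The genes and lists were chosen with earlier results of these data known. Named genes were those called in CA1, the smallest p in ACC, the ends of each family, and genes with the smallest bin p; values of some genes of the wider list are not reported here. The labels speak of mice per group but tie no library to a mouse, so the spread behind p may be in part technical.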

Additional observations from a re-analysis of the deposited data

Results flagged for a closer look

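The response in ACC at 4 weeks and that in CA1 at 1 h differed past an adjusted p of 0.05 (normal test of the difference of the log2 fold changes) for 26 genes after shock and 16 after context, beside 25% of 14942 genes and 14.4% of 14859. With the trend on length and GC content removed the numbers were 10 and 7, with no share of all genes given for that setting. Region and time differ together in this comparison, and the errors are implied, not measured over mice. After shock the difference, ACC minus CA1, was -1.28 for Ncam2, -0.84 for Dlgap2, -0.83 for Dlg2, -0.52 for Cntnap2, -0.50 for Slitrk3, -0.49 for Flrt2, -0.42 for Slitrk4, -0.41 for Lrrtm4, -0.40 for Lrrtm2, -0.40 for Slitrk1, -0.39 for Cadm2, -0.36 for Nlgn1 and -0.36 for Ntng1. It was -0.35 for Il1rapl1, -0.35 for Nrcam, -0.35 for Nrxn3, -0.31 for Dlg3, -0.29 for Dlgap1, -0.28 for Cntn1, -0.27 for Lrrc4, -0.24 for Lrrc4c, -0.22 for Shank2, -0.22 for Clstn2, -0.20 for Dlg4, 0.26 for Flrt3 and 0.35 for Nlgn3 in the other genes past the threshold after shock. After context the difference was -1.0005 for Ncam2, -0.86 for Dlgap2, -0.76 for Dlg2, -0.43 for Shank2, -0.41 for Shank3, -0.41 for Cntnap2, -0.35 for Ncam1 and -0.35 for Slitrk3. It was -0.34 for Cntn2, -0.31 for Dlg4, -0.31 for Ptprf, -0.30 for Slitrk1, -0.27 for Dlg3, -0.24 for Lrrc4, 0.40 for Flrt3 and 0.51 for Nlgn3 in the other genes past the threshold after context. Between shock and context within a region no gene of the 50 differed past the threshold when both errors were taken as independent.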

How the results depend on the processing

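No paired analysis was possible because the tables hold no values per library; for the same reason no replicate was left out and no count model was fitted. Removing the length and GC trend changed the most: in ACC 18 genes were lower, 16 of them also as deposited, and 2 higher after shock (30 and 1 as deposited), 4 and 2 after context (22 and 1 as deposited), and the median moved to -0.069 after shock and -0.031 after context; in CA1 1 was higher after shock (3 as deposited), and 0 were higher and 1 lower after context (5 each as deposited). Among single values called before or after that removal the direction turned for 6: Nlgn1 (0.0649), Dlg1 (0.0564), Dlg4 (0.16) and Cadm4 (-0.15) in ACC after shock, and Cntnap2 (0.0502) and Ptprd (0.0221) in ACC after context; the cause was not tested. Dlg4 and Cadm4 were past the threshold only with the trend removed. A further 40 values lost their call and 4 gained one with no turn. With the trend removed, the ACC and CA1 difference was past the threshold for 10 genes after shock and 7 after context. That alternative was chosen after seeing the data, and the share of all genes at it is not given. At an adjusted p under 0.01, 13 were lower and 0 higher in ACC after context, 0 higher in CA1 after shock, and 1 higher and 2 lower in CA1 after context. At 0.1, 6 were higher in CA1 after shock and 8 after context. With an absolute log2 of at least 0.25, 18 were lower and 0 higher in ACC after shock, 10 and 0 after context, 1 higher in CA1 after shock, and 1 higher and 3 lower after context. Shares of all genes at these other thresholds are not given here, so the counts at them have no background. Of the listed bins 20 in ACC after shock, 45 after context and 1 in CA1 after context had an adjusted p under 0.01, and 2, 5 and 1 had a log2 of at least 0.5 in size; the planned count of bins 0.5 from their gene's value (4, 7 and 0) takes the gene off values already relative to it. Subtracting the covariance of the shared naive mice gave 6 genes in ACC between shock and context. A base mean of at least 50 kept every count within 1.5 times. Depth is unknown.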
